A study of Mus musculus with 6 samples.

Results

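The genes described here are 33 imprinted genes of the mouse. Their reads were compared between untreated subcutaneous tumours and tumours taken 4 h after doxycycline. The genes were found by symbol in a table of read counts for 21671 named genes, and all 33 had a row. Of these, 27 had enough reads for the test between groups. Slc22a18, Ascl2, Magel2, Snrpn, Zdbf2 and Nap1l5 did not.

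Imprinted genes are transcribed mainly from a single parental copy, which is set by DNA methylation placed in the egg or the sperm. They lie in clusters, in each of which a methylated control region governs protein-coding genes and long noncoding RNAs in cis. Many regulate fetal growth, and H19, Igf2, Dlk1 and Peg10 are known to be active in fetal liver and to return in liver tumours. Read counts per gene add both parental copies, so allelic expression was not measured.

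RNA was sequenced after ribosomal RNA depletion from tumours that mice of the strain CD1 nude ho (nude mice lack a thymus) grew from injected transformed hepatoblasts. Hepatoblasts are the fetal progenitors of hepatocytes and bile duct cells. In both groups the injected cells carried TtRMPVIR shST18, a vector whose short hairpin RNA against the zinc finger gene St18 is induced by doxycycline. The first group has 3 libraries from untreated tumours (genotype label wild type). The second has 3 libraries from tumours taken 4 h after an oral gavage of 200 mg/ml doxycycline in 300 µl of water (genotype label ST18 knockdown). The labels give no ages, and the groups differ in drug, gavage and hairpin at once. Nothing says that the libraries of a group came from separate animals, so the p-values may measure only the spread between libraries.

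Library totals ran from 12090309 to 16169043 counts, and the 33 genes took 0.348% to 0.417% of them. The libraries labelled ST18 knockdown did not hold less St18. Untreated replicates 1, 2 and 3 held 12, 23 and 19 counts of St18, and the doxycycline replicates, in the same order, 34, 12 and 61 (log2 fold change 1.03, edgeR adjusted p = 0.298, and 0.0386 without doxycycline replicate 2). St18 did not pass without any other library (edgeR adjusted p up to 0.639). The hepatoblast label was checked against 14 markers. Krt8, Krt18 and Sox9 averaged 43.5, 67.3 and 31.2 CPM (reads scaled to a common library size) in untreated tumours, whereas Alb, Ttr, Apoa1 and Hnf4a each averaged under 0.5 CPM in both groups. The summed markers ran from 138 to 225 CPM in untreated and from 141 to 230 CPM in doxycycline libraries. Of the 9 tested, 0 passed, where 5.02% of all genes tested did.

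Several of these genes are hosts of microRNAs, and those of the Dlk1-Dio3 cluster on chromosome 12 are shown because Meg3 and Rian differed widely among the doxycycline libraries. The mature sequences are RefSeq's, on build GRCm38.p6, with the seed (bases 2 to 8) in capitals. The first lies in Meg3, the second in Rian, the next 2 on the strand opposite Rtl1, and the last 3 in Mirg.
mmu-miR-770-5p: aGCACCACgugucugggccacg
mmu-miR-370-3p: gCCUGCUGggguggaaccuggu
mmu-miR-127-3p: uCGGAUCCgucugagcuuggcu
mmu-miR-431-5p: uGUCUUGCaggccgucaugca
mmu-miR-410-3p: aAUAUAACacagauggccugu
mmu-miR-453: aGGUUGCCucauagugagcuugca
mmu-miR-496a-5p: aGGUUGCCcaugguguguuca
Among the mature microRNAs found in H19, Igf2, Mest, Meg3, Rian and Mirg and opposite Rtl1, only the last pair, both in Mirg, share a seed. Other members were not searched for microRNAs. Mature microRNAs are not what these libraries measured. The 14 hairpin rows inside Mirg held 0 counts in each untreated library and 2, 1 and 7 counts in doxycycline replicates 1, 2 and 3.

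Promoter windows of 300 bases (250 before and 50 after a transcript's start) were in the RefSeq table for 28 of the 33 genes. Peg3 and Usp29 are shown because they are transcribed away from each other out of the same sequence, so that their windows share 263 bases. The window of Peg3, chr7:6730370-6730669 on the minus strand of GRCm38.p6, follows, with the 163 bases between the starts in capitals.
Peg3 and Usp29: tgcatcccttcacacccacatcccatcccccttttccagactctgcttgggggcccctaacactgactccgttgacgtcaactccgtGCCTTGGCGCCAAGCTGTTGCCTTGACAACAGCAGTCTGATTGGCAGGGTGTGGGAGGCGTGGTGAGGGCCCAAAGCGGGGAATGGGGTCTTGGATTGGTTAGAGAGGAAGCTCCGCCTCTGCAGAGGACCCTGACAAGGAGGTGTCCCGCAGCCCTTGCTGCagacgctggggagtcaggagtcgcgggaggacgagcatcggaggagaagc
The letters TGCCGC, read on either strand (GCGGCA on the other), are the core that ZFP57 binds when methylated. ZFP57 is a zinc finger protein that keeps imprints through early development. They were found in 11 of the 42 windows of the members, or 26.2%, against 11.6% of 32851 mouse promoter windows. These 11 belong to 10 genes (Igf2, Meg3, Zim1, Mest, Grb10, Plagl1, Nnat, Snrpn, Zdbf2 and Nap1l5). The Mest windows starting at bases 30737800 and 30737803 of chromosome 6 hold the same matches and were counted separately. The Peg3 and Usp29 windows did not hold them. GCCATNTT, the core bound by YY1 (AANATGGC on the other strand), was found in the window of 1 gene, Mkrn3, and in 6.05% of all windows. Of the Meg3 windows, that starting at base 109545148 held no TGCCGC. The other, chr12:109540746-109541045 on the plus strand, is shown with its match in capitals, since Meg3 separated the doxycycline libraries more than most members.
Meg3: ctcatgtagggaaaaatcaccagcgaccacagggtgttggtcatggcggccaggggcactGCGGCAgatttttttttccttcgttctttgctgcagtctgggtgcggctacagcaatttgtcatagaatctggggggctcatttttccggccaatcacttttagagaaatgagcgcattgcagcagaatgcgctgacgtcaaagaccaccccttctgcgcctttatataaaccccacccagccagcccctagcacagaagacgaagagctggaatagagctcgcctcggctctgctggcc
These are matches of letters in a window and say nothing of binding in these tumours.

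Kcnq1ot1 took more reads than any other imprinted gene examined, 36.8% to 50.5% of the reads of all 33. It is also the longest, with 93.1 kb of exonic sequence, and per kilobase (kb) it stood at 18.98 ± 3.64 CPM per kb in untreated tumours (SD, n = 3). Per kb the highest level was that of Igf2r, at 65.4 ± 1.602 CPM per kb. Peg10 at 37.2 ± 3.33 and Grb10 at 36.0 ± 2.21 CPM per kb came next and did not differ beyond their spread. Tssc4 (27.3 ± 0.868), Mest (26.2 ± 6.19) and H19 (22.6 ± 0.645 CPM per kb) followed, and the range of Mest covered both neighbours. Igf2r also had the most counts per exonic base of the members, at 0.960 in untreated libraries. No gene over 1 kb exceeded 1.59 counts per base there, so the level of Igf2r may be compressed. At the low end, Zim1, Zdbf2 and Slc22a18 each averaged under 0.1 CPM per kb in untreated tumours. The partners of a cluster were unequal. H19 stood at 22.6 and Igf2 at 1.73 CPM per kb, and in the Dlk1-Dio3 cluster Dlk1 stood at 2.03 CPM per kb while Meg3, Rian, Mirg and Rtl1 lay between 0.229 and 0.488.

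**Figure D1:**
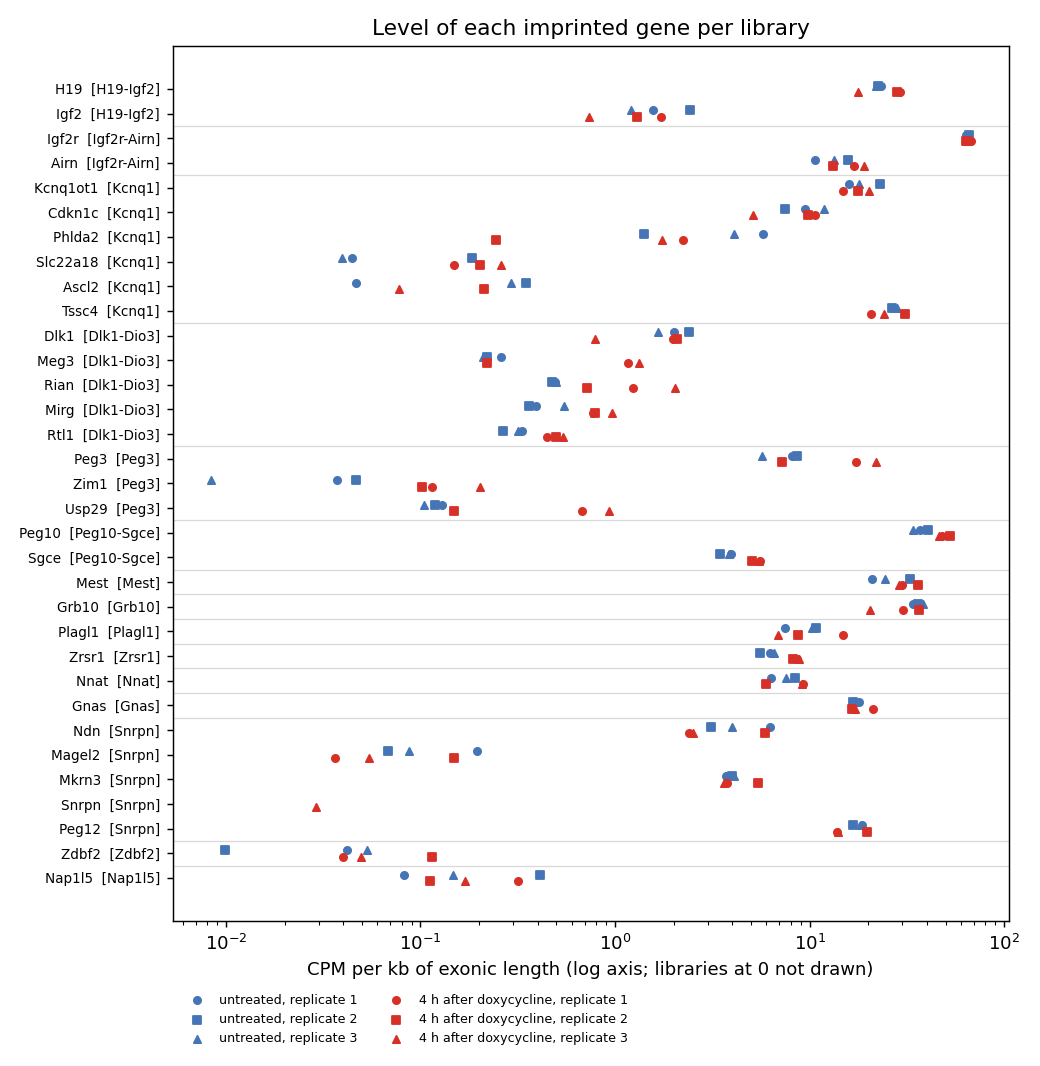
Level of the 33 imprinted genes in each library, in CPM per kb of exonic length on a log axis, grouped by imprinted cluster; blue points are untreated and red points doxycycline libraries, and libraries with no count are not drawn. Igf2r, Peg10 and Grb10 lie at the top of the range in untreated tumours and Zim1 and Zdbf2 at the bottom.

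Between the groups, Peg10 and Sgce rose after doxycycline and none of the 27 genes tested fell. These 2 genes are 7.41% of the 27, where 2.84% of the 14809 genes tested in the whole table rose and 2.18% fell (5.02% in either direction). At an unadjusted p under 0.05 there were 10 of the 27 (37.0%, against 23.9% of all genes tested), and all 10 were higher after doxycycline. Zim1, 1 of the 10, passed the filter on low counts only through its doxycycline libraries. The groups did not overlap for 8 of the 27, or 29.6%, which is the share among all genes tested (29.6%). The median log2 fold change was 0.13 over the 27 genes and 0.01 over all genes tested. By known parental expression, 2 of 16 paternally expressed and 0 of 9 maternally expressed genes passed. Grb10 and Gnas, whose parental expression is mixed, are in neither class. The 2 that passed, Peg10 and Sgce, are neighbours in the same cluster.

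The call of 2 genes depended on the libraries used. It was 0 in edgeR without untreated replicates 1, 2 or 3, where 0.0721%, 0.179% and 0.0924% of all genes tested were still called higher, and 0 without doxycycline replicates 1 or 3 (1.19% and 1.06% of all genes). At an unadjusted p under 0.05 there were then 9, 12 and 8 members (15.8%, 18.2% and 14.2% of all genes), and 8 and 9 members (22.9% and 20.7%). The call was 8 without doxycycline replicate 2, where 8.18% of all genes tested were higher. Those 8 were Meg3, Rian, Peg3, Zim1, Usp29, Peg10, Sgce and Zrsr1. DESeq2 called 6 (5.74% of all genes), and edgeR with the replicate number as a block called 1 (1.45%). With offsets for GC content and gene length edgeR called 0 (2.02%) and 11 at an unadjusted p under 0.05 (21.7%), and with offsets and block together 0 (0.729%) and 13 (18.8%). None was called lower in any of the 14 alternative analyses.

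**Figure D2:**
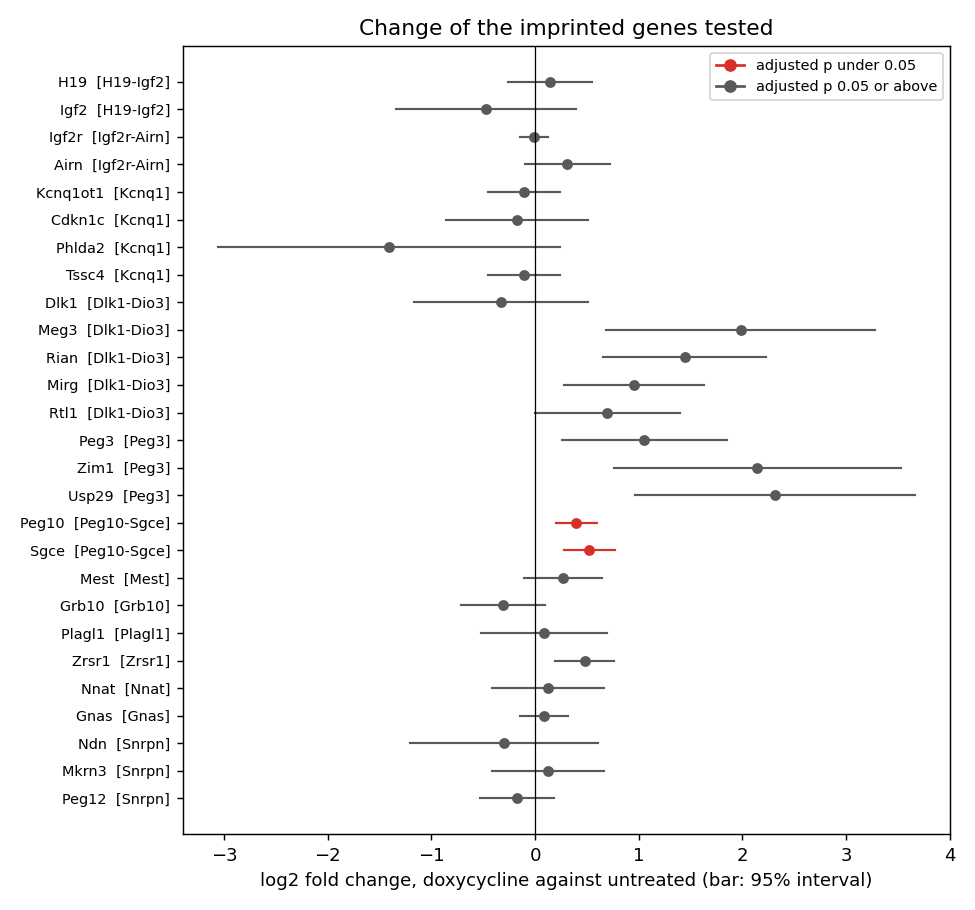
Log2 fold change (doxycycline against untreated, edgeR) of the 27 imprinted genes tested, with its 95% interval as a bar; red marks an adjusted p under 0.05. Peg10 and Sgce are marked, at 0.40 and 0.52, while Usp29, Zim1, Meg3 and Rian have larger values with wide intervals.

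Peg10 and Sgce sit head to head on chromosome 6 and are expressed from the paternal copy. Peg10 derives from a retrotransposon and encodes proteins like viral Gag and Pol, and Sgce encodes epsilon-sarcoglycan, a membrane protein of the dystrophin complex. Peg10 stood at 247, 270 and 226 CPM in the untreated libraries and at 318, 351 and 308 CPM in the doxycycline libraries, each in the order of replicates 1, 2 and 3. All 3 doxycycline libraries lay above all untreated ones, and replicate 2 was the highest. For Peg10 this is a log2 fold change of 0.40 (95% interval 0.20 to 0.59, SE 0.09, edgeR adjusted p = 0.0409). Sgce stood at 41.9, 36.9 and 40.7 CPM in untreated and at 59.4, 53.7 and 58.6 CPM in doxycycline libraries, again without overlap. Its log2 fold change was 0.52 (95% interval 0.28 to 0.77, SE 0.11, edgeR adjusted p = 0.0344). Neither passed once an untreated library was left out. The edgeR adjusted p of Peg10 was then 0.165, 0.0900 and 0.216 without untreated replicates 1, 2 and 3, and 0.0716, 0.0304 and 0.0732 without doxycycline replicates 1, 2 and 3. For Sgce these were 0.134, 0.145 and 0.171, and 0.0655, 0.0105 and 0.0925. With offsets for GC content and gene length, the edgeR adjusted p was 0.0506 for Peg10 and 0.0800 for Sgce.

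The genes around Peg10 and Sgce were read in chromosomal order from Calcr to Pdk4, an interval in which several genes are imprinted in some tissues. Of its 17 genes in the table, 13 were tested and all 13 had a log2 fold change above 0, where 51.1% of all genes tested did. This count was 11 with the GC and length offsets (Bet1 and Gngt1 turned), 11 without doxycycline replicate 2 (Bet1 and Casd1 turned), and 12 without untreated replicate 1 or doxycycline replicate 1 (Gngt1 turned). The median over the 13 was 0.42. The groups did not overlap, with doxycycline higher, for 8 of the 13 (15.2% of all genes tested). Of the 13, 4 rose (2.84% of all genes tested), namely Tfpi2, Sgce, Peg10 and Pdk4. The number that rose was 0 without any 1 untreated library (0.0721% to 0.179% of all genes tested) or doxycycline replicate 3 (1.06%). It was 1 (Tfpi2) without doxycycline replicate 1 (1.19%) or with the offsets (2.02%), and 6 without doxycycline replicate 2 (8.18%). The 13 include the members themselves and Col1a2, a collagen gene of the fibroblast marker list. Tfpi2, a serine protease inhibitor, stood at 0.454, 0.252 and 0.607 CPM in untreated and at 3.19, 1.92 and 5.46 CPM in doxycycline libraries (log2 fold change 2.997, edgeR adjusted p = 0.0234). All its untreated libraries were under the floor of 0.686 CPM that the filter on low counts set, so Tfpi2 was tested only through its doxycycline libraries. It passed without doxycycline replicate 1 or 2 and not without any other library, where its edgeR adjusted p was 0.0658 to 0.126. Pdk4, a kinase that inhibits pyruvate dehydrogenase, stood at 1.51, 1.45 and 1.22 CPM in untreated and at 4.95, 30.0 and 5.65 CPM in doxycycline libraries. Doxycycline replicate 2 was far above the other two for Pdk4. The log2 fold change of 3.28 (edgeR adjusted p = 0.0419) was 1.92 (adjusted p = 0.00740) without that library, and without any other library it missed the threshold (0.0519 to 0.243).

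**Figure D3:**
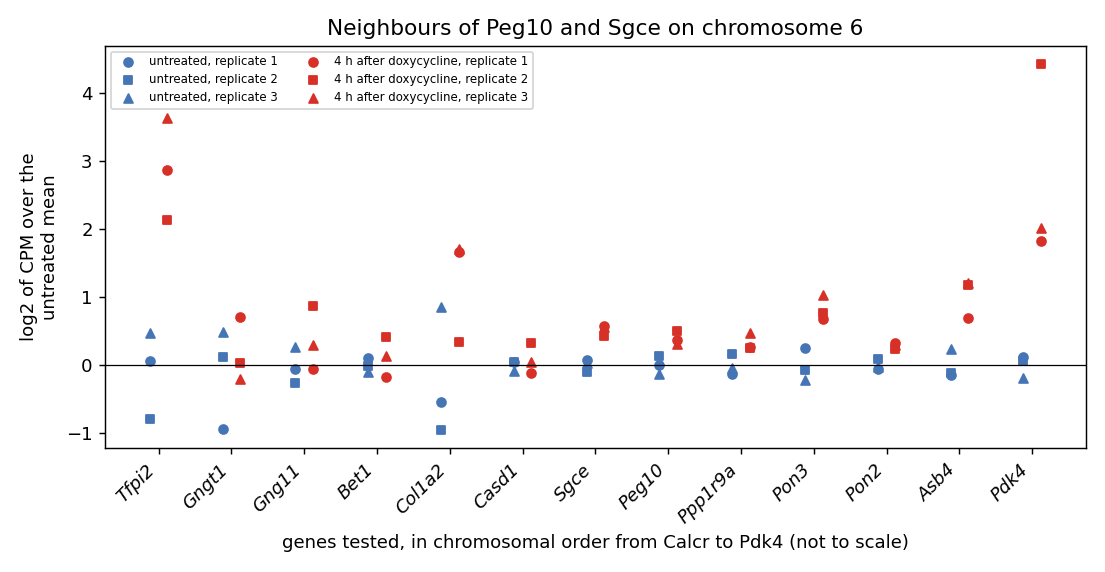
Log2 of CPM over the untreated mean for the 13 genes tested from Calcr to Pdk4 on chromosome 6, in chromosomal order, with blue points for untreated and red for doxycycline libraries. The red points of Tfpi2, Sgce, Peg10, Ppp1r9a, Pon3, Pon2, Asb4 and Pdk4 all lie above the blue ones, by little for Ppp1r9a and Pon2 and by most for Tfpi2 and Pdk4.

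The Dlk1-Dio3 cluster holds Dlk1 and Rtl1 on the paternal copy and the noncoding RNAs Meg3, Rian and Mirg on the maternal copy. Dlk1 encodes a membrane protein of the Notch ligand type and is also a hepatoblast marker, and Rtl1 is a retrotransposon-derived gene. None of the 5 passed the test. The noncoding RNAs and Rtl1 had positive and Dlk1 a negative log2 fold change. MicroRNAs lie on the strand opposite Rtl1, and strand use in the counting is unknown. The row of Rtl1 may therefore include reads of the opposite strand, and its values cannot be assigned to the paternal gene alone. Meg3 stood at 4.69, 3.96 and 3.78 CPM in untreated and at 21.0, 3.99 and 24.1 CPM in doxycycline libraries. Doxycycline replicates 1 and 3 lay far above the untreated libraries and replicate 2 among them (log2 fold change 1.98, SE 0.57, edgeR adjusted p = 0.0835). Rian, which also carries small nucleolar RNAs, stood at 9.0, 8.68 and 9.04 CPM in untreated and at 22.6, 13.1 and 36.9 CPM in doxycycline libraries. Its groups did not overlap, and its log2 fold change was 1.44 (SE 0.35, edgeR adjusted p = 0.0514). Without doxycycline replicate 2 the log2 fold changes of Meg3 and Rian were 2.44 and 1.74, with edgeR adjusted p = 0.000375 and 0.00178. That setting called 8.18% of all genes tested higher. Neither gene passed in edgeR without any other library, where the adjusted p reached 0.327 and 0.222. DESeq2 called both genes with all libraries.

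Mirg, the host of the largest microRNA group of the cluster, ran from 2.64 to 3.98 CPM in untreated and from 5.62 to 7.02 CPM in doxycycline libraries (log2 fold change 0.95, edgeR adjusted p = 0.102). Rtl1 ran from 1.70 to 2.12 and from 2.85 to 3.45 CPM (0.70, edgeR adjusted p = 0.209). Neither overlapped between groups, and for neither was doxycycline replicate 2 the lowest of its group. Dlk1 went the other way in doxycycline replicate 3. It stood at 11.4, 13.5 and 9.45 CPM in untreated and at 11.2, 11.7 and 4.45 CPM in doxycycline libraries (log2 fold change -0.33, edgeR adjusted p = 0.637). The ratio of Meg3 to Dlk1 in CPM was 0.411, 0.293 and 0.400 in untreated and 1.87, 0.339 and 5.42 in doxycycline libraries, and so was highest in replicate 3 and overlapped between groups through replicate 2. At the far end of the cluster, Dio3, the enzyme that inactivates thyroid hormone, was named after its values were seen. It had 1 count in each untreated library and 12, 8 and 26 in the doxycycline libraries. After scaling for library size, the ratio of the pooled counts was 15.9 (95% counting interval 5.10 to 79.8), which covers counting error only.

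The Peg3 cluster on chromosome 7 also separated the doxycycline libraries. Peg3 is a paternally expressed zinc finger protein linked to maternal care and growth, Usp29 a ubiquitin protease on the other side of the shared promoter, and Zim1 a maternally expressed zinc finger gene. All 3 had positive log2 fold changes and none passed. Peg3 stood at 108, 114 and 76.0 CPM in untreated and at 231, 96.2 and 292 CPM in doxycycline libraries. Doxycycline replicate 2 lay inside the untreated range (log2 fold change 1.055, SE 0.35, edgeR adjusted p = 0.116). Usp29 stood at 2.34, 2.14 and 1.89 CPM in untreated and at 12.2, 2.68 and 16.9 CPM in doxycycline libraries. Replicate 2 was just above the untreated libraries, and the log2 fold change was 2.32 (SE 0.59, edgeR adjusted p = 0.0607). Zim1 had 4, 6 and 1 counts in untreated and 11, 12 and 26 in doxycycline libraries, too few for a precise value (log2 fold change 2.15, 95% interval 0.76 to 3.53, edgeR adjusted p = 0.0822). Its untreated libraries were all under the filter's floor, so that Zim1 was tested only through the doxycycline libraries.

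Without doxycycline replicate 2, the log2 fold changes of Peg3, Usp29 and Zim1 were 1.39, 2.78 and 2.33, with edgeR adjusted p = 0.00419, 0.000635 and 0.0459. In that setting 8.18% of all genes tested were called higher. Leaving out any other library, none of these genes passed, and the edgeR adjusted p reached 0.412, 0.271 and 0.300. The ratio of Peg3 to Usp29 in CPM was 45.9, 53.4 and 40.2 in untreated and 18.9, 35.9 and 17.2 in doxycycline libraries, without overlap. Of 8 such ratios between neighbouring genes, this and Rian to Dlk1 were the ones whose groups did not overlap, or 25%. Of all genes tested, 29.6% did not overlap, but this is a share of single genes. No share was computed for ratios of other neighbouring genes. The other 6 ratios (Meg3 to Dlk1, H19 to Igf2, Igf2r to Airn, Cdkn1c to Kcnq1ot1, Peg10 to Sgce, and Gnas to its antisense RNA Nespas) overlapped.

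**Figure D4:**
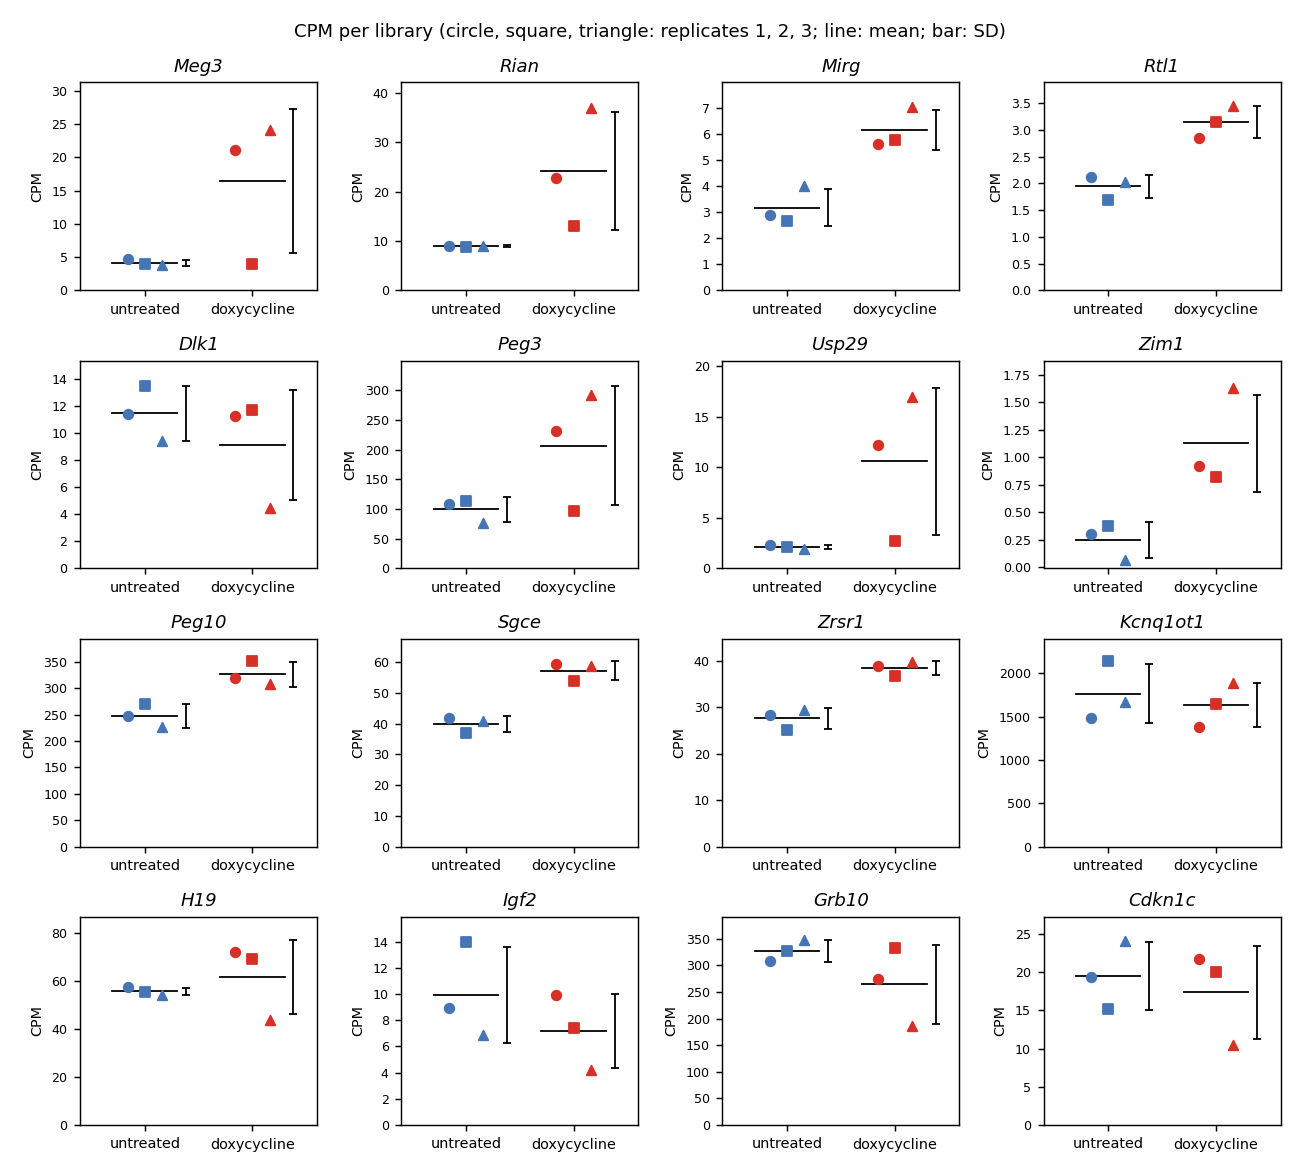
CPM of 16 imprinted genes in each library, on linear axes; circles, squares and triangles are replicates 1, 2 and 3, lines are group means and the bars beside them the SD (n = 3). For Meg3, Rian, Peg3 and Usp29 the doxycycline circle and triangle lie high and the square lies near the untreated points, whereas for Peg10, Sgce and Zrsr1 all 3 red points lie together above the blue ones.

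Zrsr1, a paternally expressed splicing factor gene inside an intron of Commd1, resembled Peg10 and Sgce in that its doxycycline libraries lay close together. It stood at 28.3, 25.1 and 29.4 CPM in untreated and at 38.8, 36.8 and 39.7 CPM in doxycycline libraries. The groups did not overlap and the test was not passed (log2 fold change 0.48, SE 0.13, edgeR adjusted p = 0.0671, and 0.0328 without doxycycline replicate 2). Zrsr1 did not pass without any other library (edgeR adjusted p up to 0.230). Commd1, its host gene, had a log2 fold change of -0.0031 (edgeR adjusted p = 0.994).

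H19 and Igf2 share enhancers and a control region at the end of chromosome 7. H19 is a maternally expressed noncoding RNA, and Igf2 encodes a paternally expressed fetal growth factor. H19 stood at 57.4, 55.4 and 54.3 CPM in untreated and at 72.1, 69.1 and 43.8 CPM in doxycycline libraries. Replicates 1 and 2 lay above and replicate 3 below all untreated libraries (log2 fold change 0.15, 95% interval -0.26 to 0.55, edgeR adjusted p = 0.673). Igf2 stood at 8.92, 14.0 and 6.88 CPM in untreated and at 9.89, 7.42 and 4.20 CPM in doxycycline libraries, which overlapped (log2 fold change -0.47, 95% interval -1.35 to 0.40, edgeR adjusted p = 0.497). Igf2r, the receptor that clears IGF2, varied little. It ran from 592 to 618 CPM in untreated and from 592 to 626 CPM in doxycycline libraries (log2 fold change -0.01, 95% interval -0.15 to 0.13). Among the members Igf2r came closest to the highest counts per exonic base of any gene, so a difference between groups may be compressed. Airn, the paternally expressed RNA that overlaps Igf2r on the opposite strand, ran from 38.2 to 57.0 and from 47.7 to 68.6 CPM (0.31, edgeR adjusted p = 0.339).

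In the Kcnq1 cluster, Kcnq1ot1 is a paternally expressed noncoding RNA that starts inside Kcnq1 and silences its neighbours in cis. Kcnq1ot1 stood at 1489, 2144 and 1668 CPM in untreated and at 1383, 1646 and 1892 CPM in doxycycline libraries. The groups overlapped, and the log2 fold change was -0.11 (95% interval -0.45 to 0.24, edgeR adjusted p = 0.717). Without untreated replicate 2 it was 0.04. Cdkn1c, which encodes the cell cycle inhibitor p57, ran from 15.2 to 24.1 and from 10.4 to 21.7 CPM (log2 fold change -0.17). Phlda2, a growth-limiting gene of the placenta, had 85, 25 and 68 counts in untreated and 30, 4 and 31 in doxycycline libraries, which overlapped (log2 fold change -1.41, 95% interval -3.06 to 0.24, edgeR adjusted p = 0.281). Tssc4 had a log2 fold change of -0.11. Slc22a18, a solute carrier, and Ascl2, a trophoblast transcription factor, had 7 and 17 counts over the untreated and 15 and 7 over the doxycycline libraries and were not tested.

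The chromosomal intervals of 3 other clusters were read in the same way as that from Calcr to Pdk4. Of all genes tested, 51.1% had a log2 fold change above 0, 2.18% fell and 5.02% passed in either direction, the shares to set beside the counts below. From Ascl2 to Osbpl5, around Kcnq1, 15 of 17 genes were tested, 5 had a log2 fold change above 0, and the median was -0.11. Cars, which encodes a cysteinyl-tRNA synthetase and was named after its values were seen, fell there. It was the only gene of the 15 to pass, which is near the share over all genes. Cars stood at 162, 158 and 165 CPM in untreated and at 105, 120 and 115 CPM in doxycycline libraries, without overlap (log2 fold change -0.51, edgeR adjusted p = 0.0156). Cars did not pass without untreated replicates 1, 2 or 3 (edgeR adjusted p = 0.0999, 0.0712 and 0.111), or with replicate block and offsets together (0.0858). In the Dlk1-Dio3 interval 5 of 65 genes were tested and 4 had a log2 fold change above 0, and in the Peg3 interval 3 of 6 were tested and all 3 did. The genes tested in these last intervals are all members, and none passed.

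The remaining members did not pass and overlapped between the groups. Grb10, an adaptor that dampens insulin receptor signalling, stood at 308, 327 and 348 CPM in untreated and at 274, 333 and 186 CPM in doxycycline libraries, lowest in replicate 3 (log2 fold change -0.31, edgeR adjusted p = 0.337). Plagl1, a zinc finger regulator of the cell cycle, ran from 58.5 to 84.3 and from 54.1 to 116 CPM (0.09). Mest, of the alpha/beta hydrolase fold, had 0.27, Gnas, which encodes the stimulatory G protein subunit, 0.08, and Nnat, a small membrane protein, 0.13 as log2 fold change. In the Snrpn cluster, Ndn (necdin) had a log2 fold change of -0.30, Mkrn3 (a RING finger protein) 0.12 and Peg12 -0.17. Snrpn itself, which encodes a spliceosomal protein, held 1 count in all 6 libraries together, whereas Snurf, named for the same transcript, held 31 counts in untreated and 25 in doxycycline libraries. The sources used here do not give how reads shared by the pair were assigned, so the level of Snrpn cannot be read from its row. Magel2, Zdbf2 and Nap1l5 each held under 50 counts per group.

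Overlapping genes were followed because strand use in the counting is unknown, so reads of overlapping genes on opposite strands cannot be told apart. Of 9 listed genes, 6 overlap a member in the annotation (Kcnq1, Copg2, Commd1, Blcap, Herc3 and Nespas). Casd1 and Gpr1 lie next to Sgce and Zdbf2, and Trappc9 is the host of another imprinted gene, Peg13. None of the 9 passed. Their log2 fold changes ran from -0.71 for Gpr1 to 0.38 for Herc3. Blcap, which surrounds Nnat, ran from 48.2 to 53.3 CPM in untreated and from 41.0 to 47.7 CPM in doxycycline libraries (log2 fold change -0.22, edgeR adjusted p = 0.268).

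The doxycycline libraries did not order the members alike. Of the 27 tested, doxycycline replicate 2 was the lowest of its group for 12 (44.4%, against 40.5% of all genes tested), among them Meg3, Rian, Peg3, Zim1 and Usp29. Replicate 3 was the lowest for 9 (33.3%, against 26.6%), among them H19, Igf2, Cdkn1c, Dlk1 and Grb10, and replicate 1 for 6 (22.2%, against 32.9%). Replicate 3 lay above all untreated libraries for 12 members and below all of them for 10. Replicate 1 lay above for 16 and below for 5, and replicate 2 above for 13 and below for 3. Among all genes tested, each of these 3 libraries lay above for 37.1% to 37.2% and below for 36.0% to 36.5%. Over the whole table, and not only for imprinted genes, replicate 2 differed most from the other doxycycline libraries. The chi-square per degree of freedom was 29.2 and 29.8 against replicates 1 and 3, and 12.4 between replicates 1 and 3.

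Markers of other cell types moved with the groups too. Of all genes tested, 2.84% rose, which is the share to set beside the counts below. Skeletal muscle markers rose for 11 of 18, and their summed level ran from 91.4 to 248 CPM in untreated libraries and was 1559, 3163 and 465 CPM in doxycycline replicates 1, 2 and 3. Fibroblast markers rose for 4 of 16 (Lum, Dcn, Postn and Mfap5), with sums from 1701 to 1743 CPM in untreated libraries and 2423, 2093 and 2370 CPM in doxycycline libraries. Macrophage markers rose for 3 of the 8 tested, with sums from 310 to 359 and then 523, 421 and 577 CPM. Endothelial markers rose for 2 of 10, with sums from 282 to 323 and then 378, 386 and 445 CPM. Adipocyte markers rose for 0 of the 3 tested, with sums from 44.0 to 46.0 and then 53.6, 65.3 and 51.0 CPM. Lep was the only marker of these lists at 0 in every untreated library.

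Doxycycline replicate 2, where Meg3, Rian, Peg3 and Usp29 were lowest among the doxycycline libraries, had the largest muscle sum and the smallest fibroblast and macrophage sums of its group. The part of these cells in the values of the imprinted genes was not tested. In whole tumours, fewer cells of a type and less RNA per cell cannot be told apart.

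**Figure D5:**
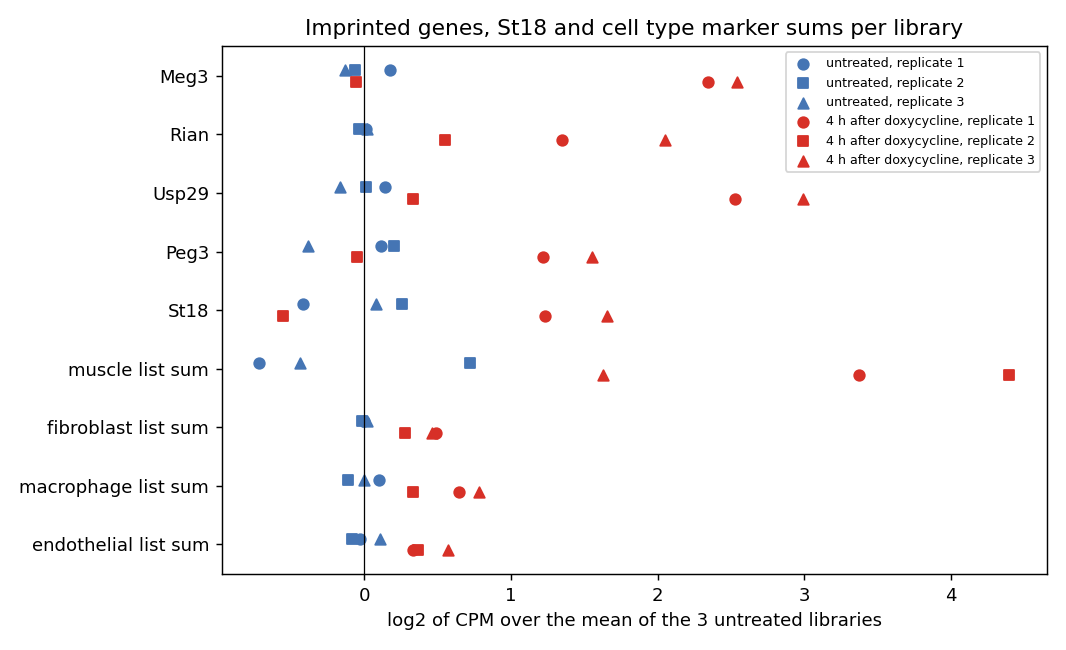
Log2 of CPM over the mean of the untreated libraries for Meg3, Rian, Usp29, Peg3 and St18, and for the summed markers of skeletal muscle, fibroblasts, macrophages and endothelium, with blue points for untreated and red for doxycycline libraries. The red square (replicate 2) is the lowest red point for the 5 genes and for the fibroblast and macrophage sums, and the highest for the muscle sum.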

How the data were processed

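Reads were counted per gene by the authors, and the deposited values are raw read counts. The submitters' processing notes name TopHat2 2.0.8, TopHat, HTSeq and the mouse build mm9. The sources used here do not give strand use, the annotation or the treatment of multiply mapped reads. The table has 21761 rows. The 90 without a gene name held 0.0361% to 0.0402% of counts and were left out. No libraries of a group agreed within sampling noise. The chi-square per degree of freedom was 5.17 to 8.28 between untreated libraries and 12.4 between doxycycline replicates 1 and 3. Between doxycycline replicate 2 and replicates 1 and 3 it was 29.2 and 29.8. Counts per exonic base did not exceed 1.59 for any gene over 1 kb in untreated libraries, so levels and fold changes of very abundant genes may be compressed. Igf2r, at 0.960, came closest among the members.

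Groups were taken from the sample titles. All genes were fitted in R 4.3.3 with edgeR 4.0.16 (filterByExpr, TMM scaling, robust quasi-likelihood test, two-sided, Benjamini-Hochberg adjustment over 14809 genes, threshold 0.05). "Rose" and "fell" mean an adjusted p under 0.05, and log2 fold changes are doxycycline against untreated. CPM (edgeR's cpm) are counts scaled by the TMM-adjusted library total. Levels per kb use exonic lengths of the GENCODE M21 annotation, another build than the authors', and coordinates are printed only for RefSeq sequences. The fit was tested on data simulated with the same spread for all genes and libraries. That test does not show how the fit behaves with libraries as unlike as these. Alternatives were DESeq2 1.42.0, limma-voom 3.58.1, other scaling factors, no filter on low counts, GC and length offsets, a replicate block and leaving out each library. The same alternatives were run on the genes from Calcr to Pdk4 and on Cars, added after seeing the data.

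The members and lists were chosen with earlier results of these data known. Named are all members, St18, the overlapping or neighbouring genes and, of 3 further lists (other imprinted genes, imprint maintenance, fetal liver or liver tumour genes), those that passed and up to 4 others with the smallest p.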

Additional observations from a re-analysis of the deposited data

How the results depend on the processing

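No member was called lower under any alternative. The number called higher, 2, was 6 with DESeq2 (Meg3, Rian, Usp29, Peg10, Sgce and Zrsr1), 1 with the replicate block (Peg10), 0 with the replicate block and GC and length offsets together, 0 with those offsets alone, and 0 to 8 when a library was left out. Over all genes, 421 rose and 323 fell. With DESeq2 these were 877 and 790, with the replicate block 215 and 179, with the block and offsets 108 and 69, and with limma-voom 251 rose. Leaving out a library gave 11 to 1244 higher and 12 to 866 lower. The labels do not say whether the replicate numbers pair the libraries. Deviations of same-numbered libraries from their group means correlated at -0.00976, -0.0747 and 0.0155, and those of other pairs at -0.143 to 0.136. With 3 libraries a group these values cannot decide whether libraries were paired.

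Of the 27 members tested, 18 kept the sign of their log2 fold change in all 14 alternatives and 19 were called in none. The signs that turned belonged to differences that did not pass. Igf2r was 0.024 with upper-quartile factors, 0.033 with the replicate block and offsets and 0.034 with the offsets. Tssc4 was 0.073 with the block and offsets and 0.085 with the offsets, Cdkn1c 0.040 with the offsets, Plagl1 -0.019 with limma-voom, and Copg2 and Commd1 0.0051 and 0.031 with upper-quartile factors. When a library was left out, the log2 fold change ran from -0.037 to 0.0018 for Igf2r, from -0.22 to 0.038 for Kcnq1ot1, from -0.36 to 0.095 for Cdkn1c, from -0.29 to 0.012 for Tssc4, from -0.56 to 0.0032 for Dlk1, from -0.29 to 0.30 for Plagl1, from -0.038 to 0.15 for Gnas, from -0.85 to 0.018 for Ndn, from -0.086 to 0.23 for Mkrn3, from -0.42 to 0.060 for Kcnq1, from -0.11 to 0.049 for Copg2, from -0.11 to 0.090 for Commd1 and from -0.035 to 0.19 for Casd1. The cause was not tested.

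With 3 libraries a group Meg3 and Peg3 did not pass in edgeR, while DESeq2 called Meg3, and members under about 1 CPM were limited by counting.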

Other observations

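Of 59 further imprinted genes, 39 were tested and 3 rose (7.69%, against 2.84% of all genes), with none lower. Their median log2 fold change was 0.11. Adam23, a membrane protein of the ADAM family, stood at 1.97, 2.08 and 1.75 CPM in untreated and at 14.5, 7.15 and 11.5 CPM in doxycycline libraries (log2 fold change 2.51, edgeR adjusted p = 0.0124). All doxycycline libraries lay far above the untreated ones. It passed without any single doxycycline library, and its edgeR adjusted p was 0.0924, 0.0633 and 0.0845 without untreated replicates 1, 2 and 3. The other two were Tfpi2, tested only through its doxycycline libraries, and Pdk4, both near Peg10. The next by p, none of which passed, were Pon3 (log2 fold change 0.84, edgeR adjusted p = 0.0532), Inpp5f (0.29), Ppp1r9a (0.33) and Trappc9 (-0.30).

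Of 20 genes known to set or keep imprints, 18 were tested and 2 rose (11.1%, against 2.84% of all genes), with a median log2 fold change of -0.03. Arid4a and Arid4b, chromatin proteins that act at the Snrpn control region, had log2 fold changes of 0.41 and 0.40 (edgeR adjusted p = 0.0359 and 0.0295). Arid4a stood at 98.7, 102 and 112 CPM in untreated and at 150, 136 and 132 CPM in doxycycline libraries, without overlap. Neither passed once any library other than doxycycline replicate 2 was left out (0.0613 to 0.167). Zfp57 ran from 93.7 to 106 CPM in untreated and from 93.1 to 97.1 CPM in doxycycline libraries. Its partner Trim28 (log2 fold change -0.18, edgeR adjusted p = 0.145), the DNA methyltransferase Dnmt1 (-0.19) with its cofactor Uhrf1 (-0.29), and the histone methyltransferase Setdb1 (-0.19) did not pass.

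Of 11 genes linked to fetal liver or liver tumours, among them Alb and the repressors Zbtb20 and Zhx2, 9 were tested. Of these, 1 rose (11.1%, against 2.84% of all genes). Gpc3, a cell surface glypican, stood at 0.378, 0.503 and 0.405 CPM in untreated and at 6.54, 1.37 and 5.71 CPM in doxycycline libraries, lowest in replicate 2 of the latter (log2 fold change 3.37, edgeR adjusted p = 0.0261). All its untreated libraries were under the filter's floor, so Gpc3 was tested only through its doxycycline libraries. It passed without doxycycline replicate 2 and missed the threshold without any other library (0.0600 to 0.140). Afp, the classical fetal liver protein, averaged 1.01 CPM in untreated and 0.644 CPM in doxycycline libraries. The RNA-binding Igf2bp1, which binds Igf2 RNA, had a log2 fold change of -0.26 (edgeR adjusted p = 0.0599), Hmga2 0.25 and Zbtb20 0.58, and none of these passed.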
